A study of Homo sapiens with 6 samples.

Results

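The genes described here are the interleukin 1 (IL-1) ligands IL1A, IL1B, IL18 and IL33, the receptor antagonist IL1RN, the receptor chains IL1R1 and IL1RAP, the processing protease CASP1, and the separate cytokine and receptor genes IL32 and IL7R. They were taken by gene symbol, and each of the 10 symbols matched 1 of the 60623 genes in the files. As a group they were selected on their knockdown and control FPKM values in these same 6 libraries. Their differences between the groups are therefore given as a description, with no p-value. Gene levels came from RNA-seq of Huh7, which the labels name as the cell line and which derives from a human liver cancer. The series holds 3 libraries of cells with the genotype label SRSF10 knockdown, made with a short hairpin RNA by the series title, and 3 of control cells with the genotype label WT. No label gives a treatment, a time after knockdown, the number of clones or whether the control carried a hairpin, so effects of the hairpin itself and of less SRSF10, a splicing factor, cannot be told apart.

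IL-1 alpha and IL-1 beta bind the receptor IL1R1, which then recruits IL1RAP and signals through MYD88 and IRAK kinases to NF-kB and MAP kinases. The receptor antagonist occupies IL1R1 without signalling, and the decoy receptor IL1R2 binds ligand without a signalling domain. IL-1 beta and IL-18 are made as precursors that caspase-1, the CASP1 product, cuts inside inflammasomes. In the liver IL-1 beta helps to drive acute phase responses. IL-32 is a human cytokine outside the IL-1 family that is induced in inflamed epithelia, and IL7R is the alpha chain shared by the receptors for IL-7 and TSLP.

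SRSF10, the targeted gene, was lower in every knockdown library. It was at 10.6, 10.8 and 10.6 FPKM (fragments per kilobase of gene, scaled to library size) in the knockdown libraries, against 18.6, 19.5 and 19.8 FPKM in the controls (exact two-sided permutation p = 0.1, the smallest that 3 against 3 allow). Steps between low values put the depth at 12720000 to 14350000 fragments assigned to genes per library. Of 12 hepatocyte markers, 9 were under 1 FPKM in every library. AFP was at 0.872 to 0.892 FPKM in the knockdown, against 0.669 to 0.958 FPKM in the controls, and ALB was at 0.434 to 0.814 FPKM in the knockdown, against 0.115 to 0.172 FPKM in the controls. The epithelial keratin KRT8 was at 421.5 to 452.0 FPKM in the knockdown, against 426.0 to 465.0 FPKM in the controls. APOA2, TTR and GPC3 were at 0 in all 6 libraries and APOA1 was at most 0.1105 FPKM, while fibrinogen FGB and the liver factor HNF4A were above 1 FPKM in every library. With these defining liver products at or near 0, the identity of the cells as Huh7 rests on the labels and was not established from the data. Of 17 leukocyte markers, 6 were at 0 throughout, and the pan-leukocyte gene PTPRC reached at most 0.0172 FPKM. The summed leukocyte markers ran from 3.87 to 5.48 FPKM in the knockdown, against 5.61 to 6.42 FPKM in the controls. The lower sum reflects CD79A, at a mean of 1.61 FPKM in the knockdown and 3.90 FPKM in the controls. ITGAM (means 1.73 and 1.09 FPKM) and CD14 (0.299 and 0.150 FPKM) were higher in the knockdown without overlap.

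The regulatory sequence next to the 4 called genes with the largest differences is printed to show what lies at their starts. Each is the 250 bases before a gene start in RefSeq on GRCh38.p14, taken from the first window listed for the gene, 5′ to 3′. Capitals mark letters that match the NF-kB consensus, AP-1 (TGACTCA or TGAGTCA), C/EBP (TTGCNNAA) or the TATA box (TATAAA), on either strand.
IL1A (chr2:112784494-112784743, minus strand): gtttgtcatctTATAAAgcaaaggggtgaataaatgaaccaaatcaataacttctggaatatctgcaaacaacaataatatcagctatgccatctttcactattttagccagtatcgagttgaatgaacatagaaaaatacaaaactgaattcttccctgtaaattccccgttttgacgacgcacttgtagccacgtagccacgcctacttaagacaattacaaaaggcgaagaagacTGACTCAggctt
IL1B (chr2:112836780-112837029, minus strand): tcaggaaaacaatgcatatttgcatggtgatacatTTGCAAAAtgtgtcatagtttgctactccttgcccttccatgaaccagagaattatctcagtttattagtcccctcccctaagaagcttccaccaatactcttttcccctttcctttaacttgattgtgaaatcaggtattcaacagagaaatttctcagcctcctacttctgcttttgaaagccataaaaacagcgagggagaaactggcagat
IL32 (chr16:3065153-3065402, plus strand): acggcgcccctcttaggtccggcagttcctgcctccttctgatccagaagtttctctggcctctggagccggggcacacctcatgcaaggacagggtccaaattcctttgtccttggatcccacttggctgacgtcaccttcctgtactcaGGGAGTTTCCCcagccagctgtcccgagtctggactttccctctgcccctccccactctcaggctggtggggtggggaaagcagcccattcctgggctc
IL7R (chr5:35856641-35856890, plus strand): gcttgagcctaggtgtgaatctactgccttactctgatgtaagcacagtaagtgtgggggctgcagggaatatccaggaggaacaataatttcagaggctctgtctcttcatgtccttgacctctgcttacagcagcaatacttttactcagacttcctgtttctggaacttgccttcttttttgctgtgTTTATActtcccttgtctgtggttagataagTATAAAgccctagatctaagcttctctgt

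Of these bases, 97 for IL1A, 124 for IL1B, 106 for IL32 and 89 for IL7R lie in exons of other transcripts of the same gene in GENCODE release 29. The table held 16 windows for 8 of the 10 genes. The NF-kB consensus was matched for IL32 alone, in 2 overlapping matches that begin 99 and 98 bases before the start. In all 35116 RefSeq windows of that length, 5.21% held this consensus. AP-1 letters stood before IL1A and IL1RN, and in 4.20% of all windows. C/EBP letters stood before IL1B, and in 9.05% of all windows. TATA box letters stood before IL1A, IL1RN, IL1R1 and IL7R, and in 10.7% of all windows. For IL1A they lay 239 to 234 bases before the start. For IL1R1 they lay at 229 to 224 and 124 to 119 bases, and for IL1RN at 32 to 27 and 30 to 25 bases, both in window 3 of the gene. For each motif a gene was counted if any of its windows held a match, whereas the shares are of single windows, so genes and shares are not compared like for like. The match before IL7R at 29 to 24 bases from the start is the one printed last in its line. No motif of this set was matched in all 4 printed windows.

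The agonist ligands IL1B and IL1A were higher in every knockdown library than in any control. IL1B (ENSG00000125538), read from the minus strand of chromosome 2 between 112829751 and 112836903 on GRCh38, had 6.76, 6.15 and 6.09 FPKM in the knockdown, against 2.01, 1.20 and 2.18 FPKM in the controls. The knockdown values lie close together, and the controls are spread by replicate 2. The ratio of means was 3.52, and the difference of mean log2(FPKM + 1) was 1.41 (SE 0.14, n = 3 per group), above that of 99.7% of the 12191 tested genes. These values rest on an estimated 293, 258 and 240 fragments in the knockdown, against 89, 47 and 92 in the controls. In bulk RNA, more cells that transcribe a gene and more RNA per cell cannot be told apart.

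IL1A (ENSG00000115008, chromosome 2, 112773915 to 112784590, minus strand), whose product acts as precursor and as a mature cytokine, was at 2.93, 2.14 and 2.43 FPKM in the knockdown, against 0.851, 0.667 and 1.46 FPKM in the controls. The groups do not overlap, and replicate 3 stands highest among the controls. The ratio of means was 2.52 and the log2 difference 0.83 (SE 0.16). IL1A had the smallest number of fragments of the called genes, 62 to 87 in the knockdown and 18 to 42 in the controls. In FPKM, which is per length, IL1B exceeded IL1A in all 6 libraries, by 2.31, 2.87 and 2.50 times in the knockdown and by 2.36, 1.80 and 1.50 times in the controls.

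IL18 (ENSG00000150782, chromosome 11, 112143251 to 112164117, minus strand), the caspase-1 substrate that induces interferon gamma in lymphocytes, was the most abundant ligand and did not pass the test. It was at 10.1, 8.54 and 10.2 FPKM in the knockdown, against 10.04, 10.4 and 10.8 FPKM in the controls, and the groups overlap. The log2 difference was -0.10, with a 95% interval of -0.27 to 0.07. The ratio of IL18 to IL1B was 1.50, 1.39 and 1.68 in the knockdown, against 4.99, 8.61 and 4.93 in the controls. This ratio moved with IL1B, which was chosen with its values known. IL33 (ENSG00000137033, chromosome 9), a nuclear alarmin of barrier cells, was listed at 0 in every library.

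The receptor antagonist IL1RN (ENSG00000136689, chromosome 2, 113107214 to 113134016, plus strand) was at 1.16, 0.790 and 0.986 FPKM in the knockdown, against 0.534, 0.459 and 0.703 FPKM in the controls. The groups do not overlap, but only 1 library reached 1 FPKM, so it was left out of the test. The ratio of means was 1.73, below that of both agonists. As a share of IL1B, IL1RN was 0.172, 0.128 and 0.162 in the knockdown, against 0.266, 0.382 and 0.322 in the controls. Every knockdown library thus had less IL1RN per IL1B than any control, although both were higher. IL1B was chosen with its values known, and any gene that rose less than IL1B gives a lower ratio. The ratio is therefore a description only.

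**Figure D1:**
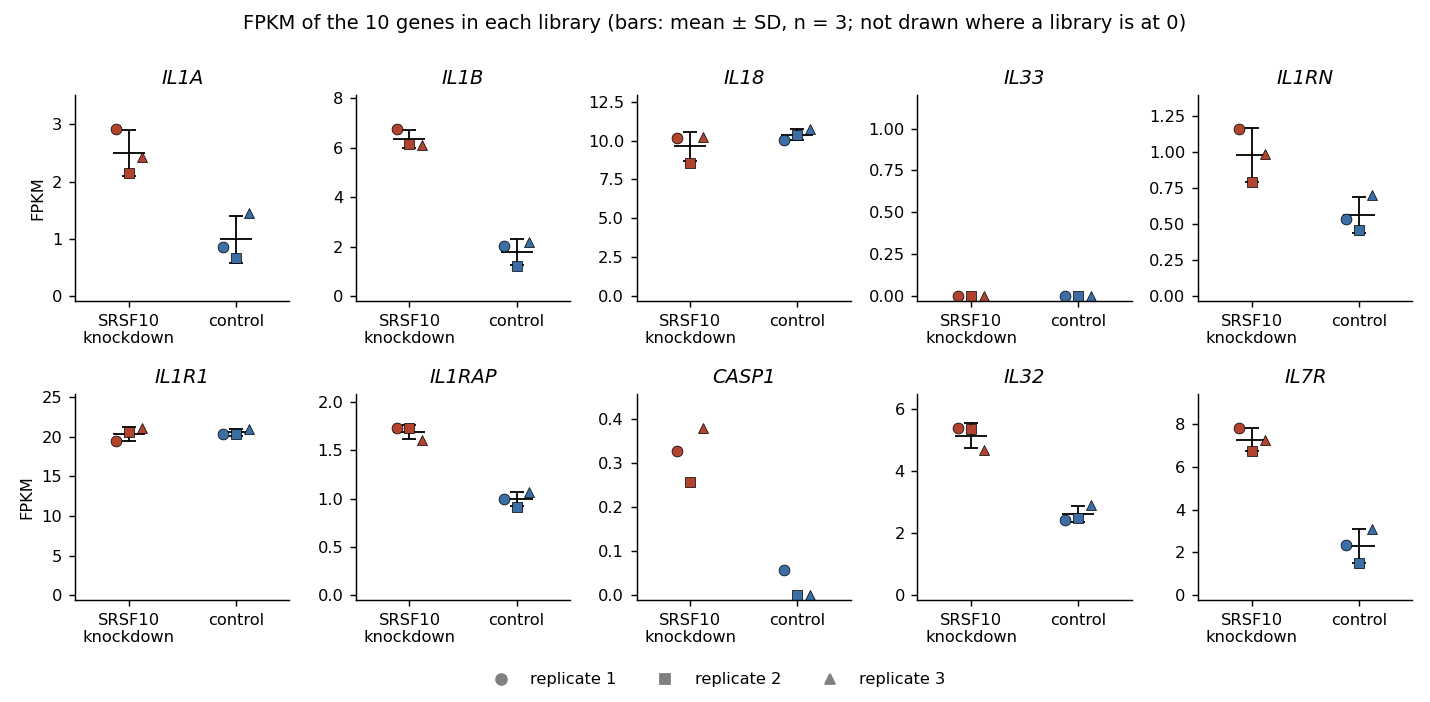
FPKM of each of the 10 genes in every library, with SRSF10 knockdown left and control right in each panel, the symbol giving the replicate number and the bars the mean ± SD of 3 where the gene had a value in every library. IL1A, IL1B, IL1RN, IL1RAP, CASP1, IL32 and IL7R show no overlap between the groups, IL18 and IL1R1 overlap, and IL33 is at 0.

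The signalling receptor IL1R1 (ENSG00000115594, chromosome 2, 102064544 to 102179874, plus strand) had the highest level of the 10 genes in both groups. It was at 19.4, 20.6 and 21.1 FPKM in the knockdown, against 20.4, 20.3 and 21.02 FPKM in the controls. The groups overlap throughout, the log2 difference was -0.01 and its 95% interval ran from -0.11 to 0.09. Each library held an estimated 1828 to 2069 fragments of the gene. The antisense gene IL1R1-AS1 shares 11 exon bases with it and was listed at 0 throughout.

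IL1RAP (ENSG00000196083, chromosome 3, 190514051 to 190659750, plus strand), the co-receptor that IL1R1 needs to signal, was at 1.73, 1.73 and 1.61 FPKM in the knockdown, against 0.999, 0.919 and 1.07 FPKM in the controls. The groups do not overlap and each is tight. The log2 difference was 0.43 (SE 0.079) and the ratio of means 1.70. It lies on chromosome 3, where the median log2 difference of 718 tested genes was -0.19 and 43.9% were called lower. Against IL1R1 the co-receptor amounted to 8.91%, 8.42% and 7.60% in the knockdown, and 4.91%, 4.53% and 5.11% in the controls. IL1RAP shares 535 exon bases with the gene AC108747.1, which was listed at 0 in all libraries.

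CASP1 (ENSG00000137752, chromosome 11, 105025443 to 105035250, minus strand), the inflammasome protease, was near 0 in the controls. Its level was 0.328, 0.258 and 0.381 FPKM in the knockdown, against 0.0564, 0 and 0 FPKM in the controls. These are an estimated 17, 13 and 18 fragments in the knockdown, against 3, 0 and 0 in the controls. The gene was far below the limit for the test. CARD16, a near copy of its amino-terminal part on the same chromosome, was at 0.423, 0.957 and 0.835 FPKM in the knockdown, against 0.165, 0.233 and 0.306 FPKM in the controls, and reads of the pair may be split between them. CARD16 was singled out after its values were seen.

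IL32 (ENSG00000008517, chromosome 16, 3065297 to 3082192, plus strand) was at 5.39, 5.33 and 4.66 FPKM in the knockdown, against 2.43, 2.48 and 2.90 FPKM in the controls. The groups do not overlap, and in each group replicates 1 and 2 lie close together while replicate 3 stands apart, toward the other group. The ratio of means was 1.97 and the log2 difference 0.77 (SE 0.077), or 0.82 without knockdown replicate 3 and 0.83 without control replicate 3. IL32 shares 129 exon bases with the small nuclear RNA pseudogene RNU1-125P, listed at 0 throughout.

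IL7R (ENSG00000168685, chromosome 5, 35852695 to 35879603, plus strand), best known from lymphocytes, was at 7.83, 6.74 and 7.26 FPKM in the knockdown, against 2.33, 1.50 and 3.08 FPKM in the controls. The groups are far apart, and the controls are spread more widely, with a coefficient of variation of 7.52% in the knockdown and 34.2% in the controls. The ratio of means was 3.16 and the log2 difference 1.35 (SE 0.17), from 554 to 664 estimated fragments in the knockdown and 116 to 253 in the controls. Of the lymphocyte markers, CD3D, CD2 and MS4A1 were at 0 in all libraries, and CD3E was at 0.0275 FPKM in knockdown replicate 3 and 0 in the others. The B cell receptor chain CD79A was the exception, at 1.52, 1.91 and 1.41 FPKM in the knockdown, against 4.16, 4.45 and 3.09 FPKM in the controls, and was called lower. The myeloid integrin ITGAM was called higher, at 1.54, 2.01 and 1.62 FPKM in the knockdown, against 1.20, 0.885 and 1.19 FPKM in the controls.

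Of the 10 genes, 7 were tested and 5 were called higher (limma across all genes, Benjamini-Hochberg adjusted p under 0.05): IL1A, IL1B, IL1RAP, IL32 and IL7R. None was called lower, IL1R1 and IL18 were tested and not called, and IL1RN, CASP1 and IL33 were not tested. Over all 12191 tested genes 12.6% were called higher and 12.5% lower. The groups did not overlap for 7 of the 10, all higher in the knockdown: the 5 called genes and the untested IL1RN and CASP1. Over all tested genes 20.6% were higher without overlap and 22.0% lower, shares that compare with 5 of the 7 tested genes here. Nothing is read from these counts, since the genes were chosen with the values known, and IL1A and IL1RAP reached 1 FPKM in only 1 control each. With no filter on low values CASP1 was called as well and IL1RN was not (log2 difference 0.34, SE 0.12). No call of these 5 genes was lost when any library was left out, which is no separate support, since the genes were chosen on these same values.

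Among the controls the order of the replicates was similar across the genes. Among the knockdown libraries it varied, with replicate 1 the highest for 5 of the 10, beside 33.6% of all tested genes. Control replicate 3 had the highest control value for all 8 genes with a value in every library, and control replicate 2 the lowest for 6 of the 10. Over all tested genes replicate 3 was the highest control for 32.6% and replicate 2 the lowest for 32.9%. Leaving out control replicate 2 took the log2 difference of IL1B to 1.24 and that of IL7R to 1.16, and leaving out control replicate 3 took them to 1.51 and 1.52. The order of levels in the knockdown was IL1R1, IL18, IL7R, IL1B, IL32, IL1A, IL1RAP, IL1RN, CASP1 and IL33, and of these only the ranges of IL7R and IL1B overlap among neighbours. In the controls it was IL1R1, IL18, IL32, IL7R, IL1B, IL1RAP, IL1A, IL1RN, CASP1 and IL33. There the ranges of IL32 and IL7R, of IL7R and IL1B, of IL1RAP and IL1A, of IL1A and IL1RN, and of CASP1 and IL33 overlap.

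IL1A, IL1B and IL1RN lie in a cluster of 9 IL-1 family genes that spans 360.1 kb of chromosome 2 (112773915 to 113134016). The 6 genes between them encode IL-36 cytokines, their antagonist, IL-37 and IL-38, and none reached 1 FPKM in any library. IL36B, an agonist of the IL-36 receptor, was at 0.763, 0.550 and 0.669 FPKM in the knockdown, against 0.297, 0.294 and 0.395 FPKM in the controls. IL37 was at 0.596, 0.525 and 0.187 FPKM in the knockdown, against 0, 0.281 and 0.264 FPKM in the controls, so those groups overlap. IL1F10 was listed at 0. These 3 were singled out after their values were seen.

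IL1R1 lies in a receptor cluster of 6 genes that spans 460.7 kb of the same chromosome (101991844 to 102452565). Its neighbour IL1R2, the decoy receptor, was at 1.93, 1.89 and 2.20 FPKM in the knockdown, against 2.99, 2.66 and 2.82 FPKM in the controls. IL1R2 fell, with a log2 difference of -0.35 (SE 0.071, limma adjusted p = 0.0137), lower in 3 of 3 knockdown libraries. As a share of IL1R1 it was 9.95%, 9.16% and 10.4% in the knockdown, against 14.7%, 13.1% and 13.4% in the controls. IL1RL2, the IL-36 receptor, did not pass (-0.19, limma adjusted p = 0.206). Both chains of the IL-18 receptor were low: IL18R1 was at 0.377 to 0.701 FPKM in the knockdown, against 0.511 to 0.729 FPKM in the controls, and IL18RAP was listed at 0.

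**Figure D2:**
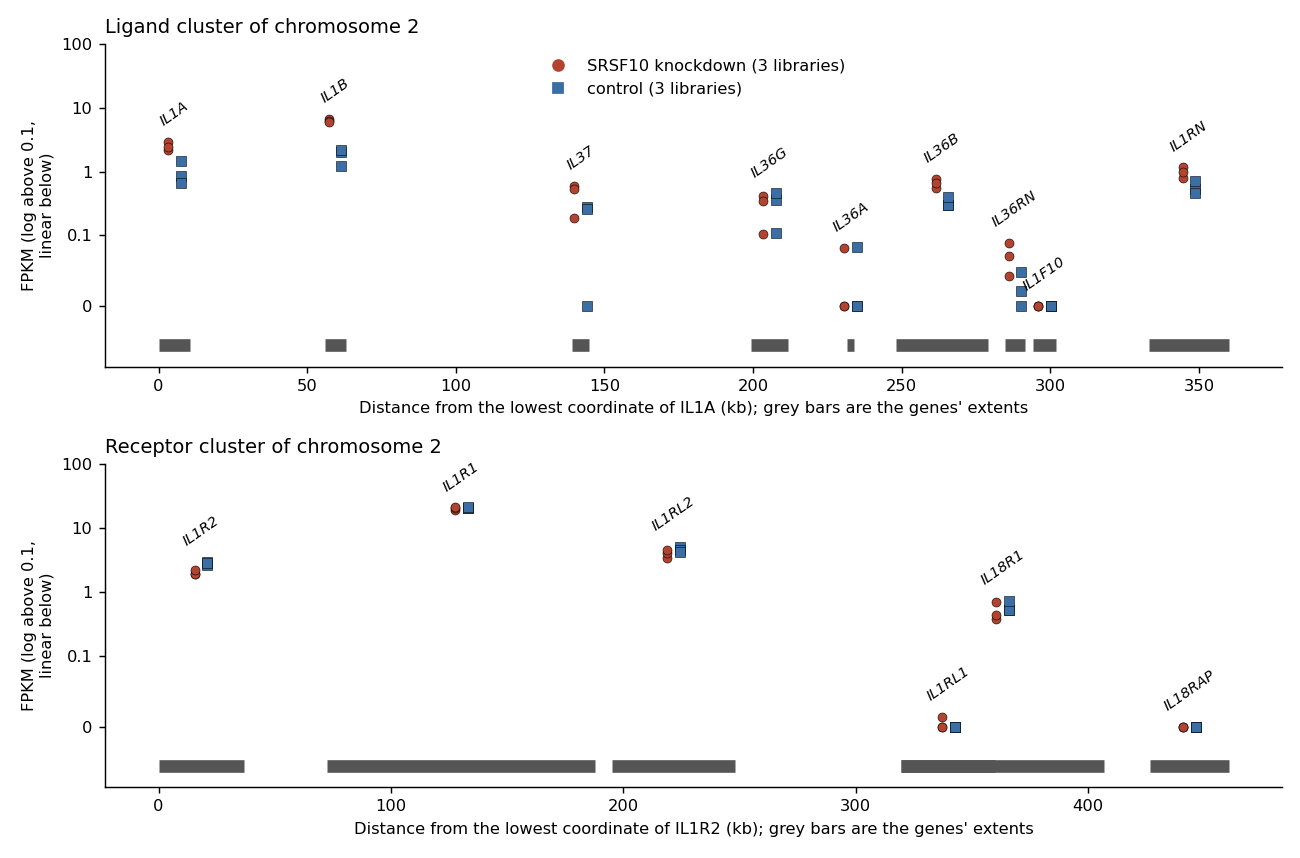
FPKM (log scale above 0.1, linear below) of the genes of the ligand cluster and of the receptor cluster of chromosome 2, placed by distance in kb, with 3 SRSF10 knockdown libraries drawn left of 3 controls. IL1A, IL1B, IL36B and IL1RN are higher without overlap in the knockdown, IL1R2 is lower without overlap, and IL1R1 overlaps.

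**Figure D3:**
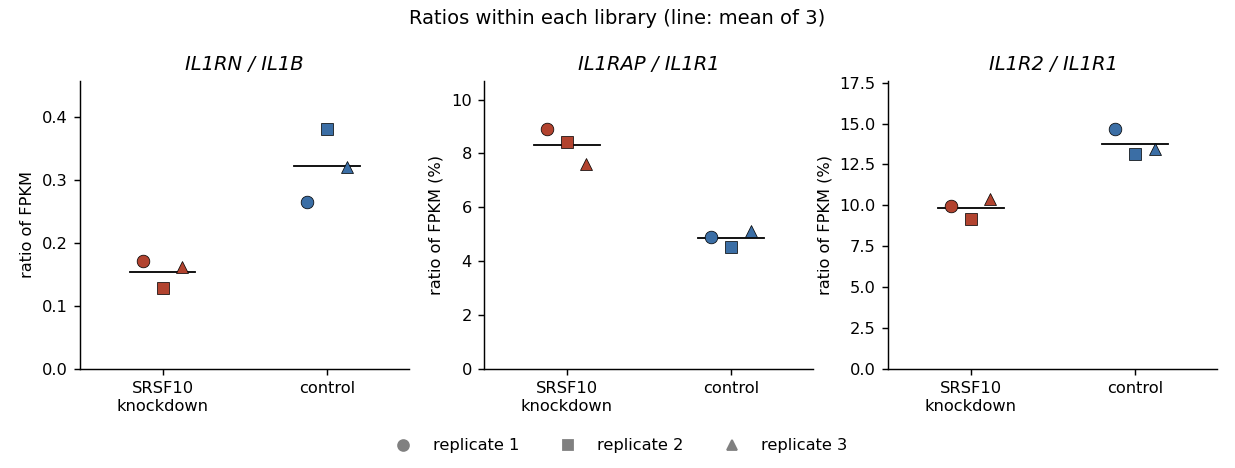
Ratios of FPKM within each library, SRSF10 knockdown left and control right, symbols giving the replicate and lines the mean of 3. IL1RN relative to IL1B and IL1R2 relative to IL1R1 are lower, and IL1RAP relative to IL1R1 is higher, in each knockdown library than in each control.

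The other genes of these pathways were taken from 6 lists of 110 genes, of which 68 were tested, 20 called higher and 6 lower, beside 12.6% and 12.5% of all tested genes. The lists were written with earlier results of these data known, and no test is given for a list. Over all tested genes the median log2 difference was -0.01. Among the remaining IL-1 family ligands, receptors and decoys 4 of 15 were tested, IL1R2 fell, 0 rose and the median log2 difference was -0.11. IL18BP, which binds IL-18, did not pass (-0.04, limma adjusted p = 0.830). SIGIRR, an inhibitory receptor, was at 2.12 ± 0.12 FPKM in the knockdown and 1.60 ± 0.19 FPKM in the controls (SD, n = 3 each) and did not pass (limma adjusted p = 0.0533).

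In signalling from IL-1 receptors to NF-kB and MAP kinases 26 of 27 genes were tested, 2 rose, 3 fell and the median was 0.02. MYD88, the adaptor of the receptor complex, was at 11.3, 11.5 and 11.8 FPKM in the knockdown, against 16.5, 14.6 and 17.8 FPKM in the controls (log2 difference -0.46, SE 0.068, limma adjusted p = 0.00423). The kinase IRAK2 fell by 0.26 on the log2 scale (limma adjusted p = 0.00689). Both genes lie on chromosome 3, and the part of that chromosome's lower values in these falls was not tested. TOLLIP, which binds and restrains IRAK1, rose (13.7 ± 0.96 FPKM in the knockdown and 10.5 ± 0.65 FPKM in the controls, limma adjusted p = 0.00947). The ubiquitin ligase PELI2 also rose (log2 difference 0.28, limma adjusted p = 0.00907). UBE2N, a ubiquitin-conjugating enzyme, was the other that fell (limma adjusted p = 0.0115). The NF-kB subunit genes RELA and NFKB1 did not pass.

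In the list of inflammasome, processing and release genes 12 of 23 were tested, 6 rose, 1 fell and the median was 0.15. NLRP3 and CASP5 were listed at 0, and the sensors NLRP1, NLRC4, NAIP, AIM2 and MEFV were under 1 FPKM in every library. PYCARD, the adaptor that joins sensors to caspase-1, was tested and did not pass (3.65 ± 0.06 FPKM in the knockdown and 3.37 ± 0.57 FPKM in the controls). P2RX7, the ATP-gated channel upstream of inflammasome assembly, was at 1.53, 1.42 and 1.61 FPKM in the knockdown, against 0.765, 0.865 and 0.626 FPKM in the controls (log2 difference 0.53, SE 0.094, limma adjusted p = 0.00842). It was under 1 FPKM in every control and passed the filter through the knockdown. The gasdermins GSDME (4.14 ± 0.23 FPKM in the knockdown and 2.66 ± 0.28 FPKM in the controls, limma adjusted p = 0.00483) and GSDMD (3.67 ± 0.22 FPKM in the knockdown and 2.72 ± 0.16 FPKM in the controls, limma adjusted p = 0.0118), which form membrane pores after cleavage, rose. CASP4, the cytosolic sensor of lipopolysaccharide, rose by 0.25 on the log2 scale (limma adjusted p = 0.00907). NINJ1 and CAPN2 were the others that rose. BRCC3, a deubiquitinase of NLRP3, fell by 0.14 (limma adjusted p = 0.0274), a call lost without any 1 of the 3 knockdown libraries (adjusted p = 0.0581, 0.0837 and 0.0967) and without control replicate 2 (0.0716) or 3 (0.0655).

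Among IL-7 receptor partners and signalling genes 8 of 17 were tested, 2 rose, 1 fell and the median was 0.14. IL2RG, the common chain that IL7R needs to signal in response to IL-7, was at 0, 0.0266 and 0.0284 FPKM in the knockdown, against 0, 0.0855 and 0 FPKM in the controls. CRLF2, which pairs with IL7R to bind TSLP, was at 1.62, 0.889 and 1.86 FPKM in the knockdown, against 0.0351, 0.0397 and 0.261 FPKM in the controls. With 2 libraries at 1 FPKM it was not tested. Its ligand TSLP was at 0.436, 0.310 and 0.386 FPKM in the knockdown, against 0.0653, 0.111 and 0.0693 FPKM in the controls. CRLF2, TSLP and IL2RG were singled out after their values were seen. SOCS2, a cytokine-inducible inhibitor, rose (3.23 ± 0.42 FPKM in the knockdown and 1.37 ± 0.59 FPKM in the controls, limma adjusted p = 0.0155, and 0.0545 without knockdown replicate 1). STAT3 rose by 0.25 on the log2 scale (limma adjusted p = 0.0189), lost without knockdown replicate 1 or 3 (0.0562 and 0.0671) or control replicate 1 or 2 (0.0612 and 0.0547). The survival factor MCL1 fell by 0.19 (limma adjusted p = 0.00742), and STAT5A did not pass.

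Among genes known to respond to IL-1 16 of 25 were tested, 9 rose, 0 fell and the median was 0.42. The adhesion receptor VCAM1 was at 10.5, 8.72 and 8.80 FPKM in the knockdown, against 1.77, 1.11 and 1.86 FPKM in the controls (log2 difference 2.01, SE 0.13, limma adjusted p = 0.000331). TNFAIP3, which restrains NF-kB, rose by 0.92 (limma adjusted p = 0.000679), the collagenase MMP1 by 1.23 (0.000685) and the apoptosis inhibitor BIRC3 by 1.38 (0.000884). ICAM1, PTGS2, CCL20, CXCL1 and SOD2 were the other 5 that rose. CXCL8, CXCL2, CXCL3, NFKBIZ, LCN2, CEBPD and ZC3H12A did not pass. The cytokine and chemokine genes IL6, CCL2, CSF2 and CSF3, the protease MMP3 and the acute phase genes CRP, SAA1, SAA2 and C3 did not pass the filter. Of these 9, C3 alone did not overlap, at 0.129, 0.159 and 0.208 FPKM in the knockdown, against 0.386, 0.351 and 0.222 FPKM in the controls. Of the IL-32 binding partners, the integrin chain ITGB3 rose (1.45, 1.87 and 1.69 FPKM in the knockdown, against 0.396, 0.627 and 0.353 FPKM in the controls, log2 difference 0.87, SE 0.12, limma adjusted p = 0.00305), its partner ITGAV did not pass (-0.05) and PRTN3 was not tested. ITGB3 was under 1 FPKM in every control and passed the filter through the knockdown.

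**Figure D4:**
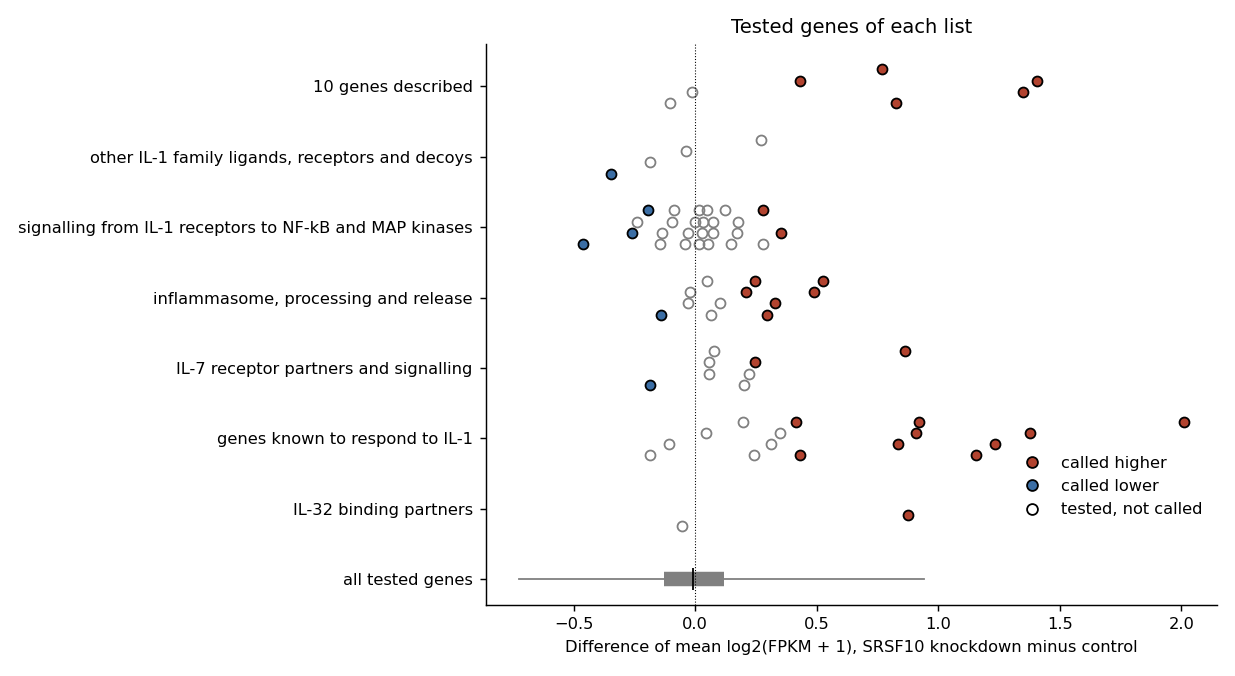
Difference of mean log2(FPKM + 1), SRSF10 knockdown minus control, for each tested gene of the 10 described and of the 6 pathway lists. Filled points are called (red higher, blue lower), open points are not, and the lowest row gives the median, quartiles (-0.13 to 0.12) and 1st to 99th percentile (-0.73 to 0.94) of all 12191 tested genes.

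Markers of other cells differed between the groups too. The sum of 6 endothelial markers was 9.56 to 10.9 FPKM in the knockdown, against 5.52 to 6.19 FPKM in the controls, and that of 8 fibroblast markers 9.57 to 10.6 FPKM in the knockdown, against 4.18 to 5.25 FPKM in the controls. Most of each sum came from KDR and PECAM1 and from LUM, which rose, KDR with every control under 1 FPKM. The other markers of both lists were under 1 FPKM in every library, and 4 of them were higher in the knockdown without overlap. CDH5 was at 0.0258 to 0.0470 FPKM in the knockdown, against 0 to 0.0129 FPKM in the controls, and COL1A1 was at 0.0718 to 0.172 FPKM in the knockdown, against 0 to 0.0142 FPKM in the controls. COL3A1 was at 0.345 to 0.442 FPKM in the knockdown, against 0.0408 to 0.0867 FPKM in the controls, and DCN was at 0.102 to 0.250 FPKM in the knockdown, against 0.00554 to 0.0376 FPKM in the controls. The groups overlapped for PDGFRB, COL1A2, THY1, ACTA2, VWF, TEK and CLDN5. Their part in the differences described above was not tested. By distance over the 6 libraries on centred log2(FPKM + 1), the 5 tested genes most like IL1B were TMEM154, ITGA1, CTSS, TNC and BIRC3, at 0.235 to 0.273 log2 units. CTSS, the lysosomal protease cathepsin S, was at 17.2, 16.5 and 16.6 FPKM in the knockdown, against 5.55, 4.68 and 5.69 FPKM in the controls. ITGA1 and TNC were under 1 FPKM in every control and passed the filter through the knockdown. The distance includes the difference between the groups, so likeness here is partly that shared difference.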

How the data were processed

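RNA-seq libraries of 3 SRSF10 knockdown and 3 control samples, all labelled Huh7, were used. Per the labels' protocols, TRIzol RNA was made into libraries with a Vazyme VAHTS V6 kit and sequenced on an Illumina NovaSeq. Per the submitters' processing notes, GRCh38 was the build, with FastQC 0.11.9 and Trim Galore 0.6.5-1 among the tools. Aligner, counter, annotation and strand setting: not given in the sources used here. Gene levels were deposited by the authors as FPKM, scaled to library size and gene length. The 363738 values of the sample files equal those of the series table.

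Genes with at least 1 FPKM in at least 3 libraries were tested on log2(FPKM + 1), a scale that understates changes of low genes, with limma 3.58.1 in R 4.3.3, its variance trend switched on and no covariate beside the group. P-values were adjusted by Benjamini-Hochberg over the 12191 genes that passed (threshold 0.05). The steps were tested on simulated data whose replicate spread beyond counting noise was set low. The controls of IL1A, IL1B and IL7R varied more (coefficients of variation 41.8%, 29.1% and 34.2%), so that test does not cover genes like them. No label says that replicates came from separate cultures, so a p-value here sets a difference against a spread that may be purely technical. Positions and exon lengths are from GENCODE release 29. Fragments were estimated as FPKM times exon length and depth. The depth is the one that makes low values whole, and 86.1% to 86.9% of values up to 6.5 fragments came within 0.05 of a whole number. Promoters are from RefSeq. Python 3.11.15 and matplotlib 3.10.9 were used.

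The members and lists were chosen with earlier results of these data known. The genes named are the 10 members, SRSF10 and, in each list, the 4 tested genes with the smallest adjusted p and 1 of the other direction if it passed. Any other gene named was chosen after its values were seen. These include the counted genes named for completeness in the IL-1 response list, RELA, NFKB1 and the markers. Replicate order, ratios and clusters were also chosen after the values were seen. Alternatives were no filter, a filter of 5 FPKM, a block for the replicate number, a pseudocount of 0.1, each library left out (keeping the genes tested), median-of-ratios scaling, rescaling without mitochondrially encoded genes, and limma without the trend.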

Additional observations from a re-analysis of the deposited data

How the results depend on the processing

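The calls of IL1A, IL1B, IL1RAP, IL32 and IL7R held in each of the alternatives in which the gene was tested, with IL1B at 1.24 to 1.80 and IL1A at 0.71 to 1.31 (log2), the highest with a pseudocount of 0.1. The genes were chosen on these same values, so this describes the calls and is no separate support for them. IL1R1 and IL18 were called in none. SRSF10 was lower in all, at -0.85 to -0.78. With a filter of 5 FPKM only 4 of the 10 genes were tested and 2 (IL1B and IL7R) called, and 13 pathway genes were called higher, since fewer genes remain. With no filter 1013 genes were called lower. Without 1 library, 986 to 1344 genes were called higher and 975 to 1335 lower, against 1542 and 1525. Without knockdown replicate 3 they numbered 986 and 975, and without knockdown replicate 2 the lower ones 997. Of single pathway genes, BRCC3, STAT3 and SOCS2 lost their call in some alternatives and SIGIRR gained one in 3 (adjusted p 0.0338 to 0.153 over all). No difference reversed with a call.

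Over all tested genes the deviations of same-numbered libraries correlated at 0.0156, 0.0570 and -0.0715, and knockdown replicate 1 was closest to control replicate 3 (0.129). These correlations cannot tell whether the numbers mark a shared culture or batch for some genes. With the replicate block 5 of the 10 genes were called higher, and 1193 genes were called higher and 1146 lower in all. Of these 5 genes, the SE was smaller with the block for IL1A, IL1B and IL7R and larger for IL1RAP and IL32. Depth limits CASP1, IL1RN and the pathway genes under 1 FPKM, where a library holds few fragments.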
